A study of Mus musculus with 3 samples.

Results

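Decorin, lumican, gelsolin and 7 further genes that mark resting cardiac fibroblasts or encode proteins of their matrix were followed in Visium sections of the mouse heart. The 10 genes, of 32285 in the files, were a fixed list of symbols (Dcn, Lum, Gsn, Mfap5, Pi16, Fbln1, Pdgfra, Tcf21, Bgn and Mgp), and every one of them had at least 50 UMIs in each pair of sections compared. This list and the other gene lists were chosen with earlier results of these data known. Their counts beside the share of all genes are therefore descriptive. The hearts came from C57BL/6 mice, and the labels give no age, sex or genetic change for any of them. An age of the mice as supplied is stated in the paper. The sham mouse received vehicle by gavage for 7 days and then the needle without a ligature. The I/R mouse received the same vehicle for 7 days, then ischemia for 30 min by ligation of the left anterior descending artery, and reperfusion for 24 h. The SBP mouse received Shexiang Baoxin Pill (MUSKARDIA), a pill of traditional Chinese medicine, for 7 days before the same 30 min of ischemia and 24 h of reperfusion. There was 1 section per condition, cut from a piece of the heart, so no difference between conditions has a replicate, no p-value is given, and animal, plane of section and treatment cannot be told apart.

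Fibroblasts of the uninjured heart keep up a fine matrix in which small leucine-rich proteoglycans such as decorin and lumican coat collagen fibrils, while fibulins, microfibril-associated proteins and matrix Gla protein belong to elastic fibres and vessel walls. After injury, fibroblasts leave this resting state and turn on collagens, fibronectin, tenascin and matricellular proteins, and resting markers such as Pi16 and Gsn are known to be lower in activated cells. The question was whether the 10 genes were lower where genes of matrix activation were higher.

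The kept spots, which are small areas of tissue holding several cells of different types, numbered 2234 (sham), 2082 (I/R) and 1960 (SBP). They held 25118258, 30238530 and 21631280 unique molecular identifiers (UMIs, counted transcripts), in that order, with a median per spot of 10645 to 14672. Levels are UMIs per 1000000 UMIs of the section, or of the group of spots that was summed (CPM). Ratios are on the log2 scale, and all 95% intervals cover counting error only. The median log2 ratio of all genes was not 0 but 0.24 for I/R over sham (12231 genes) and -0.17 for SBP over I/R (12151 genes). Ratios and calls are given against 0, and where the text says so calls are also read against the median gene of that comparison. Cardiomyocyte markers summed to 26526 CPM in the sham section, 20289 in I/R and 23143 in SBP, and atrial markers to 2.71 to 3.79 CPM in the 3 sections. A spot sum does not separate fewer fibroblasts from less RNA per fibroblast, so these cannot be told apart.

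The 10 genes did not move as a block between the sham and the I/R section. Fbln1, Pi16, Gsn and Dcn were lower in I/R, Pdgfra and Bgn were higher by more than the median gene, Lum lay near its sham level, and Mfap5 and Tcf21 were higher by about as much as the median gene and Mgp was slightly lower. The median log2 ratio of the 10 was -0.02, against 0.24 for all genes. At least 1.5-fold lower were 3 of 10, beside 3.49% of all genes, and at least 1.5-fold higher was 1 of 10, beside 23.2% of all genes. Read against the median gene, 4 of 10 were lower by that much, with Dcn added, and 1 of 10 higher. In that reading 1165 of all 12231 genes were lower and 1548 higher. Of the 22 matrix activation genes (collagens, Fn1, Tnc, Postn, Ccn2, Timp1 and others), 14 were at least 1.5-fold higher in I/R and 0 at least 1.5-fold lower, with a median log2 ratio of 0.93. Against the median gene, 12 of the 22 were higher by that much and 0 lower.

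**Figure D1:**
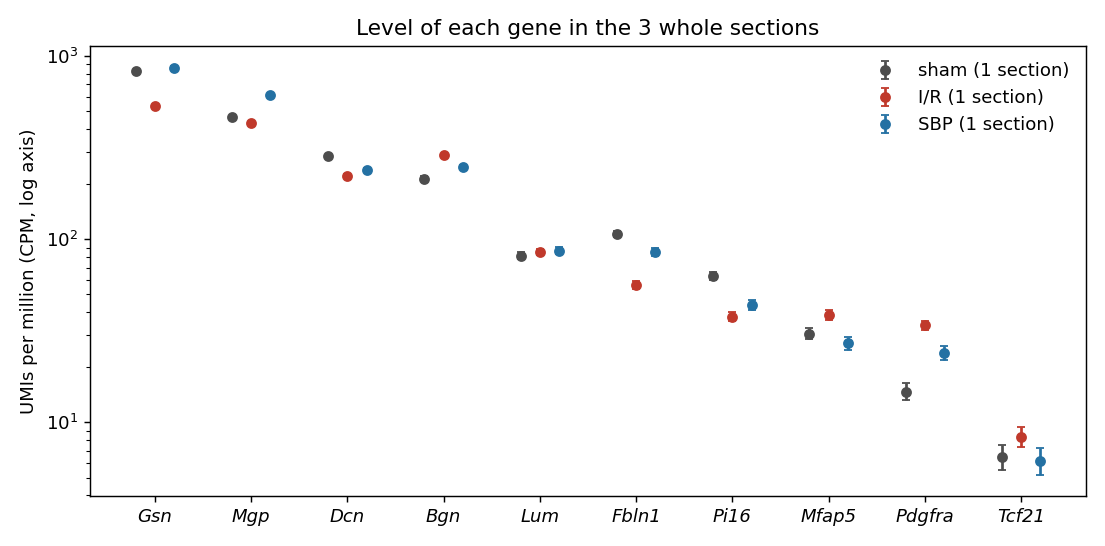
Levels of the 10 genes in the sham, I/R and SBP sections, in CPM on a log axis, with exact Poisson 95% intervals for counting error. Gsn, Fbln1, Pi16 and Dcn have their lowest level in the I/R section, and Pdgfra and Bgn their highest.

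Among the small leucine-rich proteoglycans, Dcn was lower and Bgn higher in the I/R section. Dcn (decorin, which binds collagen fibrils and TGF-beta; chromosome 10, 97479609 to 97518143, plus strand of GRCm38) stood at 283 CPM in the sham section, 221 in I/R and 239 in SBP. Its log2 ratio was -0.35 (95% interval -0.40 to -0.31) for I/R over sham and 0.11 (0.06 to 0.16) for SBP over I/R, so the SBP section lay between the others but nearer to I/R. Bgn (biglycan, a proteoglycan that can act on Toll-like receptors when it is freed from the matrix; chromosome X, 73483602 to 73495933, plus strand) stood at 214 CPM in the sham section, 287 in I/R and 247 in SBP. Its log2 ratio was 0.42 (0.37 to 0.47) for I/R over sham, above the 0.24 of the median gene, and -0.21 (-0.26 to -0.16) for SBP over I/R, which holds the -0.17 of the median gene. Lum (lumican, which regulates the assembly of collagen fibrils) stood at 81.1 CPM in the sham section, 85.3 in I/R and 86.4 in SBP. The interval of its I/R over sham ratio, 0.07 (-0.01 to 0.16), held 0 and lay below the median gene. Lum lies beside Dcn on chromosome 10, from 97565128 to 97572703, with 46984 bases and 0 annotated genes between them. The neighbours differed in their ratios, and UMIs of Lum per UMI of Dcn were 0.287 (sham), 0.386 (I/R, 0.368 to 0.403) and 0.362 (SBP). For Bgn per Dcn the values were 0.757 in the sham section, 1.30 (1.25 to 1.34) in I/R and 1.03 (0.996 to 1.08) in SBP, a measure within a section that its depth does not touch.

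The secreted proteins of elastic fibres and vessel walls went in different directions. Fbln1 (fibulin-1, of basement membranes and elastic fibres; chromosome 15, 85205949 to 85286535, plus strand) stood at 107 CPM in the sham section, 56.4 in I/R and 85.2 in SBP. Its log2 ratio of -0.92 (-1.01 to -0.83) for I/R over sham was the lowest of the 10, and that for SBP over I/R was 0.59 (0.50 to 0.69). Mfap5 (a microfibril-associated glycoprotein; chromosome 6, 122505845 to 122529290, plus strand) stood at 30.5 CPM in the sham section, 38.6 in I/R and 27.0 in SBP. Its I/R over sham ratio was 0.34 (0.21 to 0.48), an interval that holds the 0.24 of the median gene, and its SBP over I/R ratio was -0.52 (-0.66 to -0.37). Mgp (matrix Gla protein, an inhibitor of vessel calcification; chromosome 6, 136872435 to 136875823, minus strand) stood at 464 CPM in the sham section, 430 in I/R and 609 in SBP. The I/R section was slightly lower, at -0.11 (-0.15 to -0.07), and the SBP section was above both of the others, at 0.50 (0.47 to 0.54) over I/R and 0.39 (0.36 to 0.43) over sham.

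Pi16 and Gsn, listed here as genes of resting fibroblasts, were both lower in I/R than in sham. In SBP Gsn was near its sham level while Pi16 was not. Pi16 (peptidase inhibitor 16, which marks resting fibroblasts near vessels in many tissues; chromosome 17, 29317680 to 29330593, plus strand) stood at 62.9 CPM in the sham section, 37.8 in I/R and 43.5 in SBP. Its log2 ratio was -0.74 (-0.85 to -0.63) for I/R over sham and 0.21 (0.08 to 0.33) for SBP over I/R, and the SBP section was still lower than sham, at -0.53 (-0.65 to -0.41). Gsn (gelsolin, which severs and caps actin filaments; chromosome 2, 35256380 to 35307892, plus strand) stood at 823 CPM in the sham section, 534 in I/R and 864 in SBP. Its log2 ratio was -0.62 (-0.65 to -0.59) for I/R over sham, 0.69 (0.66 to 0.72) for SBP over I/R and 0.07 (0.04 to 0.10) for SBP over sham.

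The identity genes of the lineage were low but not lower in I/R. Pdgfra (the PDGF receptor alpha chain that marks cardiac fibroblasts; chromosome 5, 75152292 to 75198215, plus strand) stood at 14.7 CPM in the sham section, 33.8 in I/R and 23.8 in SBP, from 370, 1023 and 515 UMIs. Its log2 ratio was 1.20 (1.03 to 1.38) for I/R over sham, -0.51 (-0.66 to -0.35) for SBP over I/R and 0.69 (0.50 to 0.89) for SBP over sham. UMIs of Pdgfra per UMI of Fbln1, both used as fibroblast markers, were 0.138 (0.124 to 0.154) in the sham section, 0.600 (0.555 to 0.649) in I/R and 0.280 (0.253 to 0.308) in SBP. Tcf21 (a transcription factor needed for cardiac fibroblasts to form; chromosome 10, 22817281 to 22820174, minus strand) stood at 6.45 CPM in the sham section, 8.37 in I/R and 6.15 in SBP, from 162, 253 and 133 UMIs. The I/R over sham ratio of Tcf21, 0.38 (0.09 to 0.67), held the 0.24 of the median gene, and its SBP over I/R ratio, -0.44 (-0.76 to -0.14), held the -0.17.

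The comparisons of I/R with sham and of SBP with I/R share the I/R section, so a gene that is low in that section alone is low in the first and high in the second. In SBP over I/R, 2 of 10 members (Gsn and Fbln1) were at least 1.5-fold higher, beside 1.95% of all genes, and 0 of 10 were at least 1.5-fold lower, beside 13.8% of all genes. The median of the 10 was 0.07, against -0.17 for all genes. Read against that median 3 of 10 were at least 1.5-fold higher, with Mgp added, and 0 of 10 lower. In that reading 525 of all 12151 genes were higher and 1005 lower. Of the 22 matrix activation genes, 17 were at least 1.5-fold lower in SBP than in I/R and 0 at least 1.5-fold higher, with a median of -0.95. Against the median gene, 13 of the 22 were lower by that much and 0 higher. Against sham, which does not use the I/R section, the SBP section had 1 of 10 members (Pdgfra) at least 1.5-fold higher, beside 5.31% of all genes, and 0 of 10 at least 1.5-fold lower, beside 2.77% of all genes. In that comparison 8 of 22 matrix activation genes were at least 1.5-fold higher and 4 at least 1.5-fold lower.

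**Figure D2:**
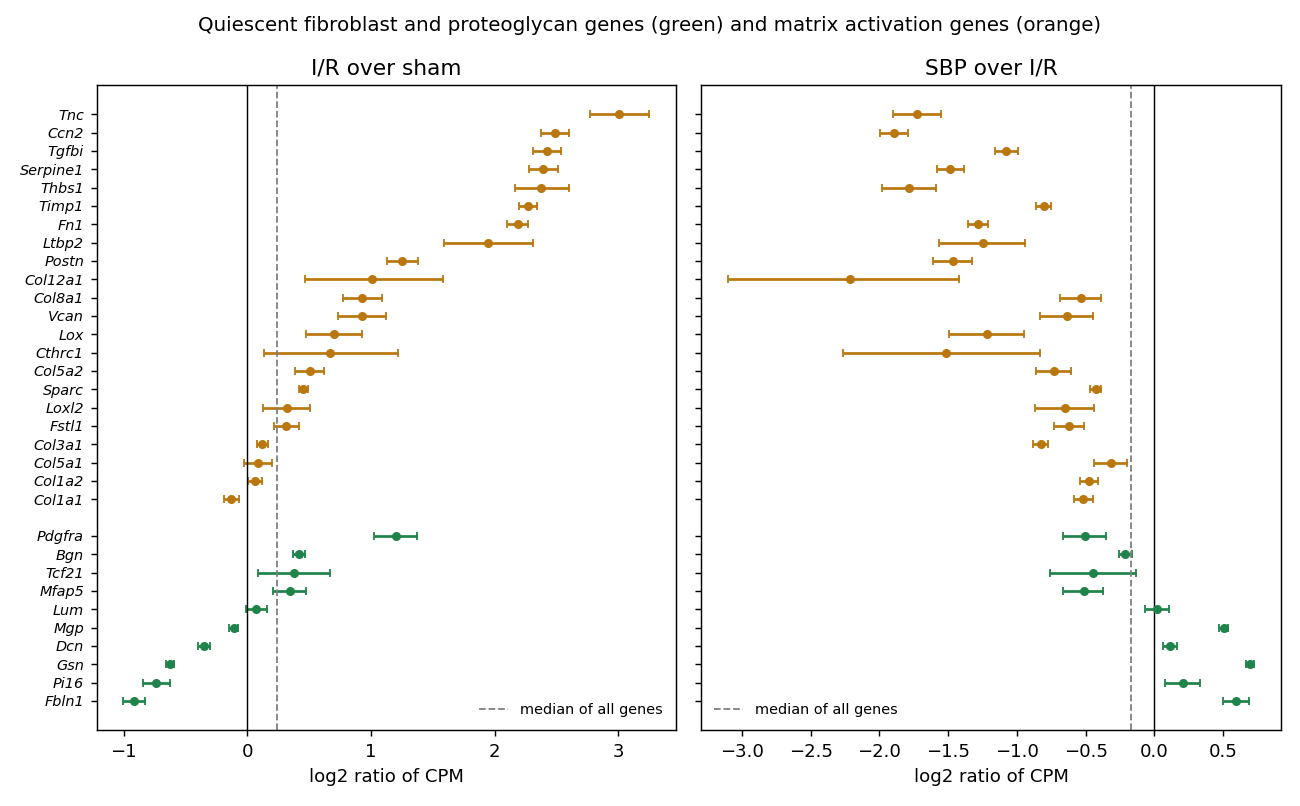
Log2 ratio of CPM for the 10 genes and the 22 matrix activation genes, I/R over sham (left) and SBP over I/R (right), with exact conditional binomial 95% intervals for counting error, and a line at the median of all genes. In the left panel the 10 genes lie on both sides of that line while most activation genes lie to its right, and in the right panel all activation genes lie left of 0.

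Summed over all 10 genes, the level was 2086 CPM in the sham section, 1732 (1717 to 1747) in I/R and 2232 (2212 to 2252) in SBP. The matrix activation genes summed to 1478 CPM in the sham section, 2645 (2627 to 2663) in I/R and 1501 (1484 to 1517) in SBP. UMIs of the activation genes per UMI of the 10 genes were thus 0.709 in the sham section, 1.53 in I/R and 0.672 in SBP, with Gsn the largest part of the member sum. The activation list itself was not uniform in I/R over sham. Tnc (tenascin-C, a matricellular protein of wounds) at 3.01, Ccn2 (a matricellular growth factor partner) at 2.49 and Tgfbi at 2.42 were its 3 highest log2 ratios, whereas the fibrillar collagen genes Col1a1 at -0.13, Col1a2 at 0.06 and Col5a1 at 0.09 were its 3 lowest. In SBP over I/R, Tnc was at -1.72, Ccn2 at -1.89, Tgfbi at -1.08 and Col1a1 at -0.52.

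Further genes of the same kinds, from lists that leave out the 10, were compared in the same way. Of 16 further genes of resting fibroblasts, 0 were at least 1.5-fold higher and 4 at least 1.5-fold lower in I/R than in sham, with a median of -0.33, and the shares of all genes stay at 23.2% higher and 3.49% lower for this and the next lists. Clec3b (tetranectin) at -1.32, Htra3 (a secreted serine protease) at -0.76 and Scara5 (a ferritin receptor) at -0.76 were the lowest, and in SBP over I/R they were at 0.70, 0.50 and 0.44. Ddr2, a collagen receptor, at 0.31, Ly6a at 0.27 and Dpp4 at 0.25 (-0.486 to 0.998) were the highest. Of 17 further proteoglycans with enough UMIs, 4 were at least 1.5-fold higher and 3 at least 1.5-fold lower, with a median of 0.02, so the higher ones were near the share of all genes. Prelp at -0.80 and Ogn at -0.70, which are small leucine-rich proteoglycans like Dcn, and the glypican Gpc1 at -0.69 were the lowest, while the lubricant Prg4 at 1.74 and the syndecans Sdc1 at 1.49 and Sdc4 at 0.83 were the highest. Of 10 further elastic fibre genes, 4 were at least 1.5-fold higher and 1 at least 1.5-fold lower, with a median of 0.41. Lox is among these 10 and also stands in the activation list. Against the median gene, 1 of the 10 elastic fibre genes was at least 1.5-fold higher and 2 lower. In that reading 0 of 16 resting fibroblast genes were higher and 7 lower, and 3 of 17 proteoglycans higher and 6 lower. Of all 12231 genes, 1548 were then higher and 1165 lower. Of the elastic fibre genes, Efemp1 (fibulin-3) at -1.45, Mfap4 at -0.51 and Fbln5 at -0.34 were the lowest. Efemp2 (fibulin-4) at 0.86, Lox at 0.70 and Emilin1 at 0.68 were the highest, so the fibulin family held both directions.

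Gsn and Bgn, abundant members that differ in direction, are shown with the 250 bases before their first annotated start (RefSeq, GRCm38.p6, plus strand), chr2:35256109-35256358 for Gsn and chrX:73483351-73483600 for Bgn. Capitals mark the GC box letters CCGCCC and their reverse complement GGGCGG, searched on both strands; adjacent matches in Bgn overlap.
Gsn: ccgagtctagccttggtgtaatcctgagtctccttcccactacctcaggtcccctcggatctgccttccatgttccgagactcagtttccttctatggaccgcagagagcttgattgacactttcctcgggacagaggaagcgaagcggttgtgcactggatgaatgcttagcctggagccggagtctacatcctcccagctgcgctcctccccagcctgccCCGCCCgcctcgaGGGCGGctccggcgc
Bgn: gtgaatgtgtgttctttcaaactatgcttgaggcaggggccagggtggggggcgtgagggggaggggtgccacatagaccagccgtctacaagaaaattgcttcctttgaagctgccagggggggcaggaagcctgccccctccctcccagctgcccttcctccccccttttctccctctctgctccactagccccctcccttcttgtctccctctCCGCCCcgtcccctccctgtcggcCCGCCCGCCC
Both windows hold GC boxes, as do 32.7% of the 32851 promoter windows of that length. Windows were found for 6 of the 10 genes, 9 windows in all, with several of Gsn and overlapping windows of Fbln1. Those of Pi16, Pdgfra and Tcf21 held no GC box, and Fbln1 had a window with it and a window without it. The AP-1 letters TGANTCA were in 0 of 9 windows, against 6.75% of all, and the TEAD letters GGAATG in 0 of 9, against 12.6% of all.

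Within each section, spots were divided by Ankrd1, a stretch and injury gene of cardiomyocytes, at the 95th percentile of the sham section (27.0 UMIs per 10000). Above it lay 112 of 2234 sham spots, 479 of 2082 I/R spots (23.0%, 21.2 to 24.9) and 326 of 1960 SBP spots (16.6%, 15.01 to 18.4). The Ankrd1-high spots were deeper, with a median of 17348 UMIs against 14103 in I/R, and in I/R they held less of the summed cardiomyocyte markers, 16846 against 21564 CPM, and more of the neutrophil markers, 269 against 224 CPM. The part of such cells in the high over other ratios was not tested. Spots of a section are not replicates, and the high over other ratios compare sums within 1 section.

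In the I/R section the same members that were low in the whole section were also low in its Ankrd1-high spots. Gsn stood at 253 CPM in the high and 638 in the other spots, a log2 ratio of -1.33 (-1.40 to -1.27). Fbln1 stood at 31.8 against 65.5 CPM, or -1.04 (-1.24 to -0.85). Pi16 stood at 23.1 against 43.2 CPM, or -0.90 (-1.13 to -0.67). Dcn stood at 153 against 246 CPM, or -0.69 (-0.78 to -0.60). These 4 of 10 genes were at least 1.5-fold lower in the high spots, beside 3.88% of all genes. Only Pdgfra, 48.8 against 28.3 CPM or 0.79 (0.60 to 0.97), was at least 1.5-fold higher, 1 of 10 beside 13.6% of all genes. Mfap5 (50.1 against 34.3 CPM), Bgn (366 against 257 CPM) and Lum (94.97 against 81.7 CPM) were also higher, by less, and Mgp was lower, 365 against 454 CPM. The 9.55 CPM of Tcf21 in the high spots rested on 78 UMIs, and its ratio of 0.27 (-0.14 to 0.66) was not distinguishable from 0 at this depth. The median of the 10 genes was -0.05, against 0.24 for all genes and 0.67 for the matrix activation genes, of which 14 of 22 were at least 1.5-fold higher and 0 lower by that much. Read against the median gene, 4 of 10 members were at least 1.5-fold lower and 0 of 10 higher. Of all 11408 genes, 990 were lower and 502 higher by that much in this reading.

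The SBP section had a like order. Fbln1 at -1.36 (-1.62 to -1.12), Gsn at -1.22 (-1.29 to -1.14), Pi16 at -1.10 (-1.44 to -0.78) and Dcn at -0.92 (-1.05 to -0.79) were at least 1.5-fold lower in its Ankrd1-high spots, 4 of 10 beside 5.02% of all genes. Pdgfra at 0.75 (0.46 to 1.04) was the 1 of 10 at least 1.5-fold higher, beside 16.6% of all genes. Mgp stood at 456 CPM in the high and 643 in the other spots, or -0.50 (-0.57 to -0.42), and Bgn at 311 against 233 CPM. The ratios of Lum, 0.01 (-0.16 to 0.18), Mfap5, 0.23 (-0.08 to 0.52), and Tcf21, -0.50 (-1.30 to 0.22), held 0. The median of the 10 was -0.50, against 0.21 for all genes. Read against that median 6 of 10 were at least 1.5-fold lower, with Mgp and Tcf21 added, and 0 of 10 higher. Of all 10469 genes, 1021 were lower and 755 higher in that reading. Tcf21 had 18 UMIs in the high spots, and its interval held the median gene too. Neutrophil markers summed to 263 CPM in the Ankrd1-high and 82.6 in the other spots of SBP, and cardiomyocyte markers to 19009 against 24058 CPM.

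The uninjured heart showed a like order, with the same 4 genes (Gsn, Pi16, Fbln1 and Dcn) lower in its Ankrd1-high spots. In the 112 Ankrd1-high spots of the sham section Gsn stood at 336 CPM against 862 in the other spots, or -1.36 (-1.48 to -1.24), and Pi16 at 40.7 against 64.7 CPM, or -0.67 (-1.02 to -0.33). These were the 2 of 10 members at least 1.5-fold lower, beside 6.08% of all genes. Bgn at 0.79 (0.67 to 0.91) and Pdgfra at 0.84 (0.36 to 1.29) were the 2 of 10 at least 1.5-fold higher, beside 28.3% of all genes. Dcn was at -0.41 (-0.56 to -0.26) and Fbln1 at -0.52 (-0.78 to -0.28), and Lum at 0.48 (0.27 to 0.69). Read against the median gene, which was at 0.31, 4 of 10 were at least 1.5-fold lower and 0 of 10 higher. These 4 were Gsn, Pi16, Fbln1 and Dcn, the same as in I/R. In that reading 1450 of all 10642 genes were lower and 1288 higher. Blood markers summed to 887 CPM in the Ankrd1-high and 3044 in the other spots of sham, neutrophil markers to 58.5 against 24.7 CPM and cardiomyocyte markers to 20035 against 27041 CPM. Of the 20 matrix activation genes with enough UMIs there, 20 were at least 1.5-fold higher.

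**Figure D3:**
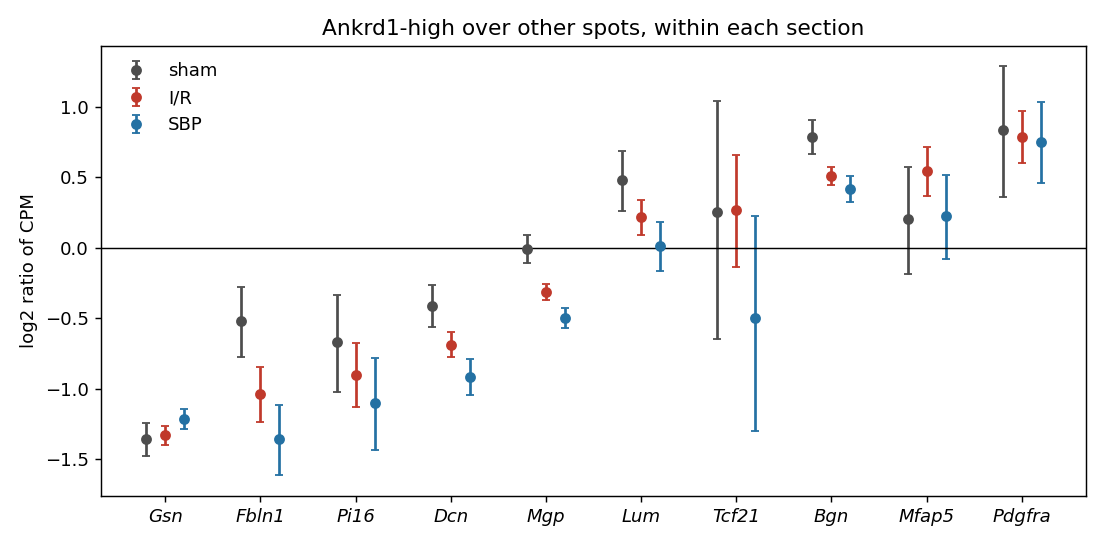
Log2 ratio of CPM in Ankrd1-high over other spots for each of the 10 genes in the sham, I/R and SBP sections, with exact conditional binomial 95% intervals for counting error. Gsn, Fbln1, Pi16 and Dcn lie below 0 in all 3 sections and Pdgfra and Bgn above 0 in all 3.

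Between sections, with the limits of 1 section per condition, the difference of I/R from sham was for some members not held by the Ankrd1-high spots alone. In the other spots, I/R over sham was -0.73 for Fbln1, -0.58 for Pi16, -0.43 for Gsn, -0.22 for Dcn and 1.02 for Pdgfra. In these spots 1 of 10 members (Fbln1) was at least 1.5-fold lower, beside 2.71% of all genes, and 1 of 10 at least 1.5-fold higher, beside 18.8% of all genes. For Mgp the interval held 0 there, at -0.03 (-0.07 to 0.01). The other spots of the sections were not alike in Ankrd1, and the classes given below divide them further. Between the Ankrd1-high spots of I/R and sham, Fbln1 at -1.25 (-1.56 to -0.95) and Pi16 at -0.81 (-1.21 to -0.41) were the 2 of 10 members at least 1.5-fold lower, beside 7.24% of all genes, and Pdgfra at 0.97 (0.53 to 1.44) was the 1 of 10 at least 1.5-fold higher, beside 16.9% of all genes. Bgn, at 0.06 (-0.06 to 0.18), had an interval that held 0. Of the activation genes, 9 of 22 were at least 1.5-fold higher and 5 at least 1.5-fold lower between these spots, with sums of 3696 CPM in I/R and 3455 in sham. SBP over I/R within the Ankrd1-high spots was 0.71 (0.62 to 0.81) for Gsn, the 1 of 10 members at least 1.5-fold higher, beside 2.23% of all genes. Fbln1, at 0.23 (-0.08 to 0.53), and Pi16, at -0.04 (-0.42 to 0.33), had intervals that held 0 there. Tcf21 and Mfap5, at -1.06 (-1.88 to -0.30) and -0.71 (-1.01 to -0.41), were the 2 of 10 members at least 1.5-fold lower, beside 12.5% of all genes. That count was near the share of all genes, and the Tcf21 ratio rested on 18 UMIs in SBP and 78 in I/R. In the other spots, SBP over I/R was 0.59 (0.56 to 0.63) for Gsn, the 1 of 10 at least 1.5-fold higher, beside 2.01% of all genes, and 0 of 10 were at least 1.5-fold lower, beside 12.2% of all genes. Fbln1 was at 0.55 (0.45 to 0.65) and Pi16 at 0.16 (0.02 to 0.29) in those spots.

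Over 5 classes of spots, set at the 25th, 50th, 75th and 95th percentiles of Ankrd1 in sham, the members followed different courses. In I/R, Gsn stood at 810, 742, 712, 458 and 253 CPM from the lowest to the highest class, and Fbln1 at 73.2, 77.1, 69.2, 52.9 and 31.8. Pdgfra had the opposite order, 16.4, 18.8, 27.0, 40.0 and 48.8 CPM. Bgn stood at 109, 181, 241, 377 and 366 CPM, so its level did not go up from the fourth class to the last. Dcn was nearly level over the first 3 classes and lower in the last ones, at 269, 252, 258, 227 and 153 CPM. In SBP, Mgp at 413, 497, 765, 807 and 456 CPM and Lum at 48.3, 56.1, 81.3, 131 and 87.0 CPM peaked in the fourth class, as Mgp did in I/R (541 CPM) and sham (607 CPM). The fourth and last classes of Lum in I/R, 103 (95.99 to 110) and 94.97 (88.4 to 102) CPM, had overlapping intervals. The activation genes summed to 809, 1370, 1952, 3597 and 3696 CPM in I/R, and to 863 in the lowest class of sham. The fourth class, part of the other spots above, held 664 spots of I/R and 447 of sham. In the lowest class, I/R against sham was 73.2 against 105 CPM for Fbln1 and 49.1 against 68.7 for Pi16. Gsn stood at 810 against 900 CPM, Pdgfra at 16.4 against 11.6 and Dcn at 269 against 263. Bgn, which was higher in the whole I/R section, was lower in this class, at 109 (99.1 to 121) against 137 (127 to 147) CPM. The intervals of Pdgfra and Dcn overlapped. The part of Ankrd1 class in these differences was not tested.

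**Figure D4:**
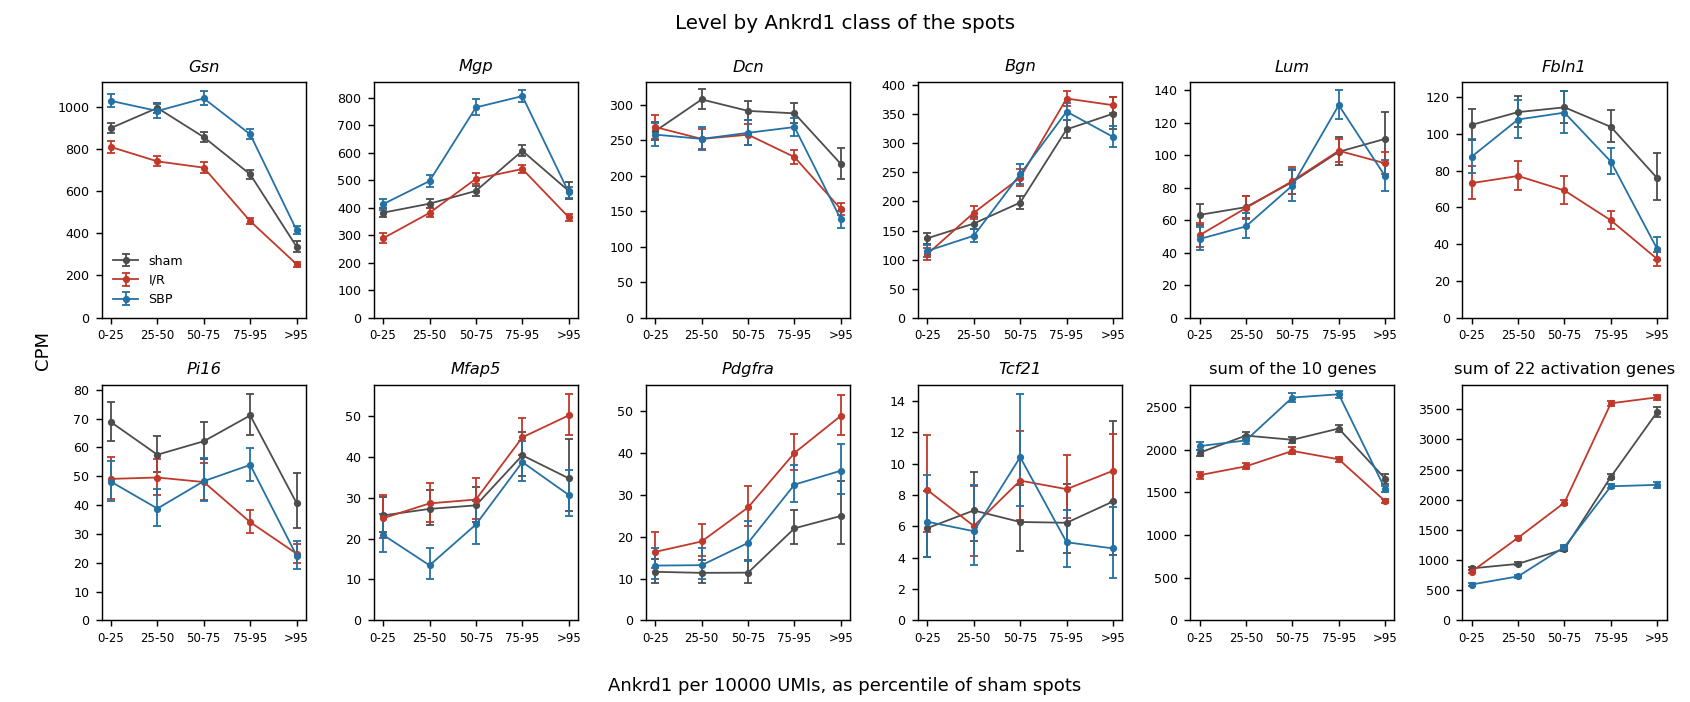
Level in CPM of each of the 10 genes, of their sum and of the summed 22 matrix activation genes over 5 classes of spots set by the sham percentiles of Ankrd1, with 1 line for each section and exact Poisson 95% intervals for counting error. Gsn and Fbln1 of the I/R section are lowest in the top class, and Pdgfra is highest there.

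A different rule for injured spots gave another picture for some members. When spots were set by the sum of 8 injury genes (814 of 2082 spots in I/R, 39.1%, and 365 of 1960 in SBP, 18.6%), of which 4 also stand in the activation list, the median gene was 0.85 higher in those spots in I/R and 0.52 in SBP. In I/R, Gsn at -0.97, Fbln1 at -0.82, Pi16 at -0.47 and Dcn at -0.46 were still lower there, while Pdgfra at 1.82 and Bgn at 1.63 were higher. In SBP, Gsn was at -0.29, Fbln1 at -0.44 and Dcn at -0.19, while Pi16 at -0.03 (-0.29 to 0.22) held 0. Pdgfra at 1.55 and Bgn at 1.43 were higher there as well. Mfap5 was also higher, at 1.08 in I/R and 1.24 (0.98 to 1.49) in SBP. Lum was at 0.83 in I/R, close to the median gene, and at 0.92 (0.77 to 1.07) in SBP. Tcf21 was at 0.61 in I/R, and its 0.52 (-0.13 to 1.12) in SBP held 0. Mgp turned from below to above 0, at 0.32 in I/R and 0.56 in SBP, but lay below the median gene in I/R and close to it in SBP. In sham Dcn at 0.25 and Pi16 at 0.56 (0.28 to 0.83) were above 0 in the injury gene spots. Fbln1 at 0.15 (-0.09 to 0.38) held 0, and Gsn was lower, at -0.43 (-0.54 to -0.33). The median gene was at 0.67 there, above Dcn, Fbln1 and Gsn and within the interval of Pi16.

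From spot to spot the members were unevenly alike. Spots were thinned to 6500 UMIs, which left out 132 shallower spots of sham, 202 of I/R and 213 of SBP and kept 2102, 1880 and 1747. Dcn UMIs were found in 72.8% of sham, 66.6% of I/R and 66.7% of SBP spots, and in 83.5%, 80.6% and 75.9% of the 2234, 2082 and 1960 spots before thinning. Pdgfra UMIs were in 8.28% of sham, 17.9% of I/R and 12.3% of SBP spots, and in 14.0%, 31.1% and 19.6% before thinning. The Pearson correlation with the summed activation genes over the spots of the I/R section was 0.58 for Bgn, 0.30 for Pdgfra, 0.30 for Lum and -0.17 for Gsn. Of the other members that were lower in I/R, Dcn was at 0.002, Pi16 at -0.04 and Fbln1 at -0.09. Mfap5 was at 0.22, Mgp at 0.16 and Tcf21 at 0.05. In sham every member was above 0, from 0.08 for Tcf21 to 0.45 for Bgn. There Dcn was at 0.24, Pi16 and Gsn at 0.15 and Fbln1 at 0.12. In SBP every member was above 0 as well, with Dcn at 0.13, Pi16 at 0.10, Gsn at 0.06, Fbln1 at 0.05 and Bgn at 0.50. Spots of a section share a library, and these values describe the section without a test. Of 3122 genes ranked by their mean correlation with the summed members over the 3 sections, Igfbp4 at 0.36, Col3a1 at 0.33, Col1a2 at 0.32 and Ltbp4 at 0.32 were among the 5 most alike. Their log2 ratios for I/R over sham were -0.33 for Igfbp4, 0.12 for Col3a1, 0.06 for Col1a2 and -0.16 for Ltbp4. Col3a1 and Col1a2 also stand in the matrix activation list.

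Markers of other cell types moved between the sections as well. Neutrophil markers summed to 27.2 CPM in the sham section, 236 in I/R and 115 in SBP, macrophage markers to 380, 485 and 363, and smooth muscle markers to 406, 311 and 204. Pericyte markers, some of which lie in the vessel walls where Mgp is also expressed, summed to 407, 306 and 366 CPM, and endothelial markers to 786, 766 and 727. Genes within these lists differed in direction in I/R over sham (brackets: UMIs of the sham sum). For smooth muscle, Acta2 (6375 of 10187) was at -0.60, Smtn at -0.26 and Myh11 at -0.15, but Tagln at 0.15 and Cnn1 at 0.93. For pericytes, Rgs5 (5851 of 10217) was at -0.61, Abcc9 at -0.53, Kcnj8 at -0.10 and Notch3 at -0.06, but Pdgfrb at 0.40. For endothelium, Fabp4 (13703 of 19742) was at -0.14 and Kdr at -0.17, but Cdh5 at 0.13, Egfl7 at 0.33 and Pecam1 at 0.35. The adipocyte marker sum was 0.199 CPM in the sham section, 0.827 in I/R and 6.43 in SBP, of which Cfd had 0, 0 and 98 UMIs. Blood markers summed to 2886 CPM in the sham section, 4105 in I/R and 3860 in SBP. Cardiomyocyte markers, given above, were lowest in I/R. Over the thinned I/R spots, the correlation with their sum was 0.26 for Gsn, 0.15 for Fbln1, 0.14 for Dcn and 0.06 for Pi16. It was -0.47 for Bgn, -0.23 for Pdgfra and -0.20 for Lum, and the other members lay from -0.09 (Mfap5) to 0.05 (Mgp). The part of all these cells in the levels of the 10 genes was not tested.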

How the data were processed

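Visium libraries of 1 section per condition were analysed. The deposited values are unnormalized UMI counts, made by the authors with Space Ranger 1.3.0 (per the file headers) for spots over tissue. In the paper a different version and a human genome are named, while the files list 32285 mouse genes, of which 32235 were found in GENCODE M21 (GRCm38).

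Conditions were taken from the labels. Spots with fewer than 200 genes were left out (3 in sham, 1 in I/R, 2 in SBP). UMIs were summed over spots and scaled to CPM. Genes needed 50 UMIs over the 2 sums compared. Intervals at 95% were exact Poisson (levels), exact binomial (shares) and exact conditional binomial (ratios of UMI sums). They carry no replicate error. Correlations used spots thinned to 6500 UMIs. Spot positions were not used.

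The text names all 10 genes, of each other list the 3 highest and 3 lowest ratios of I/R over sham, the 5 genes most alike over spots, and Ankrd1. A gene that this rule selects is not named here. Cfd and the other genes beyond this rule were chosen after their values were seen. The members and lists were chosen with earlier results of these data known. The interval code was tested on simulated data. Alternatives were scaling without the 13 mitochondrial genes, TMM and median-of-ratios factors, equal weight per spot, other filters and thresholds, thinning, and a region set by injury genes. Computations were run in Python 3.11.15 (scipy 1.17.1, numpy 2.4.6, matplotlib 3.10.9, pandas 2.3.3).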

Additional observations from a re-analysis of the deposited data

How the results depend on the processing

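No paired analysis was possible because there is only 1 section of every condition, and no section could be left out. The median log2 ratio of the 10 genes for I/R over sham, -0.02, was -0.13 without mitochondrial genes, -0.24 with TMM factors and -0.26 with median-of-ratios factors. For SBP over I/R, 0.07, it was 0.22 with TMM and 0.23 with median-of-ratios factors. In Ankrd1-high over other spots of I/R, -0.05, it was 0.47 when the region was set by injury genes, and in SBP, -0.50, it turned to 0.54 under that rule, under which the median gene had 0.85 (I/R) and 0.52 (SBP). The median of the matrix activation genes for SBP over I/R, -0.95, was -0.79 with TMM factors, -0.79 with median-of-ratios factors and -1.16 with equal weight per spot. In Ankrd1-high over other spots of I/R, 0.67, it was 0.54 without mitochondrial genes, 1.02 at the 90th and 0.41 at the 99th percentile of Ankrd1 and 2.01 with the injury gene region. In SBP, 0.83, it was 0.48 at the 99th percentile and 1.56 with the injury gene region. The activation medians for that region leave out the activation genes that help to set it. They rest on 18 genes in I/R, where 0.67 rests on 22, and on 16 in SBP, where 0.83 rests on 20. The cause of these moves was not tested, except that both factor methods shift all genes alike, by -0.22 and -0.24 for I/R over sham and by 0.16 for SBP over I/R. For I/R over sham, Lum changed sign without mitochondrial genes and with either factor method, which move every gene alike, and for SBP over I/R with equal weight per spot and without the 1% of spots richest in members. In high over other spots, Mgp changed sign in 1 of 8 alternatives in I/R, and in SBP Lum in 3, Mfap5 in 2, Mgp in 1 and Tcf21 in 1. Tcf21, with 133 to 253 UMIs per section, is the member that depth limits most.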
